A study of Homo sapiens with 6 samples.

Results

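The genes described here are 32 genes of glucose uptake, glycolysis, glycogen handling and the entry of pyruvate into mitochondria, read in HDQ-P1 cells with and without the small molecule Y-320. They were chosen as a named list: 2 glucose transporters, the enzymes of the glycolytic steps from hexokinase to lactate dehydrogenase, the PFKFB and PDK regulators, 4 glycogen genes and 2 pyruvate dehydrogenase subunits. All 32 were found by Ensembl identifier among the 40295 genes of the count table, and all 32 were among the 16580 genes with enough counts to be tested. HDQ-P1 is an established human breast carcinoma line, used in both groups, and it was grown in high glucose medium. The 3 treated libraries came from cells given 1 µM Y-320 for 48 h. For the 3 untreated libraries no solvent is mentioned, so Y-320 and a solvent cannot be told apart. A single line was used at a single dose and time, and the labels do not say whether replicates were separate cultures, so p-values measure only the spread between these libraries, which may be technical.

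Glycolysis splits glucose into pyruvate in the cytosol and yields ATP along the way. Most of its steps can be run by more than 1 isozyme, encoded by different genes with different tissue use, and tumour cells often carry much glucose through the pathway to lactate even in air. Pyruvate that is not turned into lactate can enter mitochondria and be converted to acetyl-CoA by pyruvate dehydrogenase, which the PDK kinases switch off, while the PFKFB enzymes set the level of the sugar phosphate that activates phosphofructokinase-1.

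Library totals ranged from 21045401 to 22740535 estimated counts, and the 32 genes held 1.38% ± 0.0178 of them in untreated and 1.68% ± 0.0184 in treated cells (SD, n = 3 each). The lowest estimate of any member in any library was 42.0 counts, for SLC2A3. Over all genes the treatment was followed by broad change: the share of tested genes called was 26.2% for higher and 25.4% for lower levels, with 0.05 as the limit for the adjusted p. Levels are relative to all RNA in a library, and in bulk samples fewer cells of a type and less RNA per cell cannot be told apart. The epithelial markers EPCAM, CDH1 and 6 keratins were present, but 7 of the 8 were lower with Y-320 and their summed level went from between 11702 and 12270 to between 7155 and 7251 normalised CPM (counts scaled to an equal library total by TMM). Fibroblast markers (4 of 5 lower) summed to 246 to 271 CPM in untreated and 125 to 140 CPM in treated cells. The 4 endothelial markers summed to 17.7 to 19.3 and 14.3 to 18.3 CPM, with 1 higher (PECAM1) and 1 lower (CDH5). The 5 leukocyte markers summed to at most 2.14 CPM and the 3 erythroid markers to at most 0.350 CPM. The part of these shifts in the results below was not tested.

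Most of the listed genes were higher in Y-320-treated cells. Of the 32 genes, 21 were higher, 7 were lower and 4 did not pass at an adjusted p of 0.05 (edgeR quasi-likelihood test, Benjamini-Hochberg adjustment over all tested genes). These are 65.6% and 21.9% of the set. The set was chosen with earlier results of these data known, so these shares are described only. Of 13 tested genes in a list of other glucose transport and glycolysis genes, 5 were higher and 5 lower. The 3 treated libraries lay wholly above the untreated ones for 22 members, where 29.8% of all genes did so, and wholly below for 7, where 29.4% of all genes did so. The median log2 fold change was 0.32 over the members and 0.00 over all tested genes. Most of the changes were small. The 21 increases ran from a log2 fold change of 0.12 (PGAM1) to 1.87 (ENO2), only HK2, ENO2, PFKFB4 and PDK1 reached 1, and 10 members in either direction reached 0.5. Of all tested genes, 90.7% had a lower log2 fold change than ALDOA (0.52) and 8.87% a lower one than LDHB (-0.50). The 7 lower genes were PFKM, PKM, LDHB, PFKFB2, PDK2, PDK4 and PDHB.

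**Figure D1:**
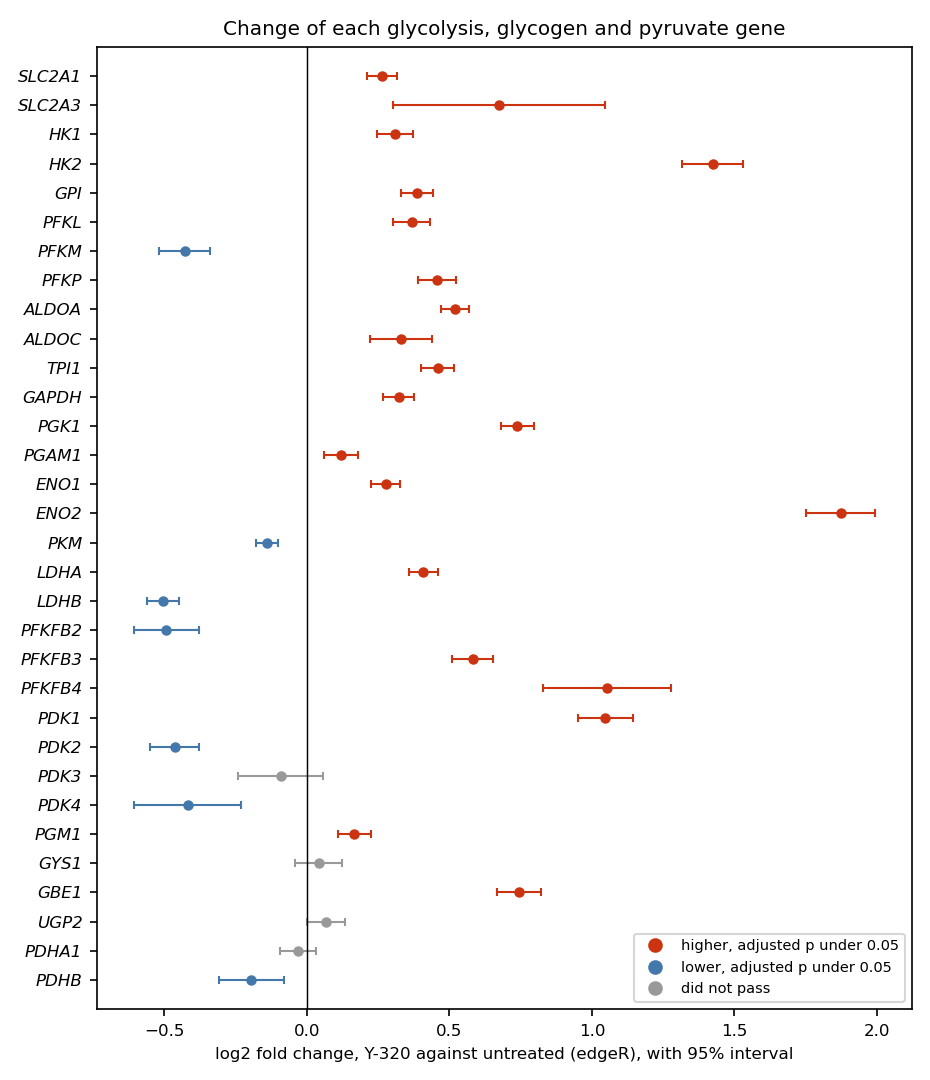
Log2 fold change of each of the 32 genes, Y-320 against untreated, as points with 95% intervals from the edgeR fit (n = 3 libraries per group), in pathway order from uptake to pyruvate dehydrogenase. The 21 red points lie to the right of 0, the 7 blue points to the left, and the intervals of PDK3, GYS1, UGP2 and PDHA1 include 0.

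**Figure D2:**
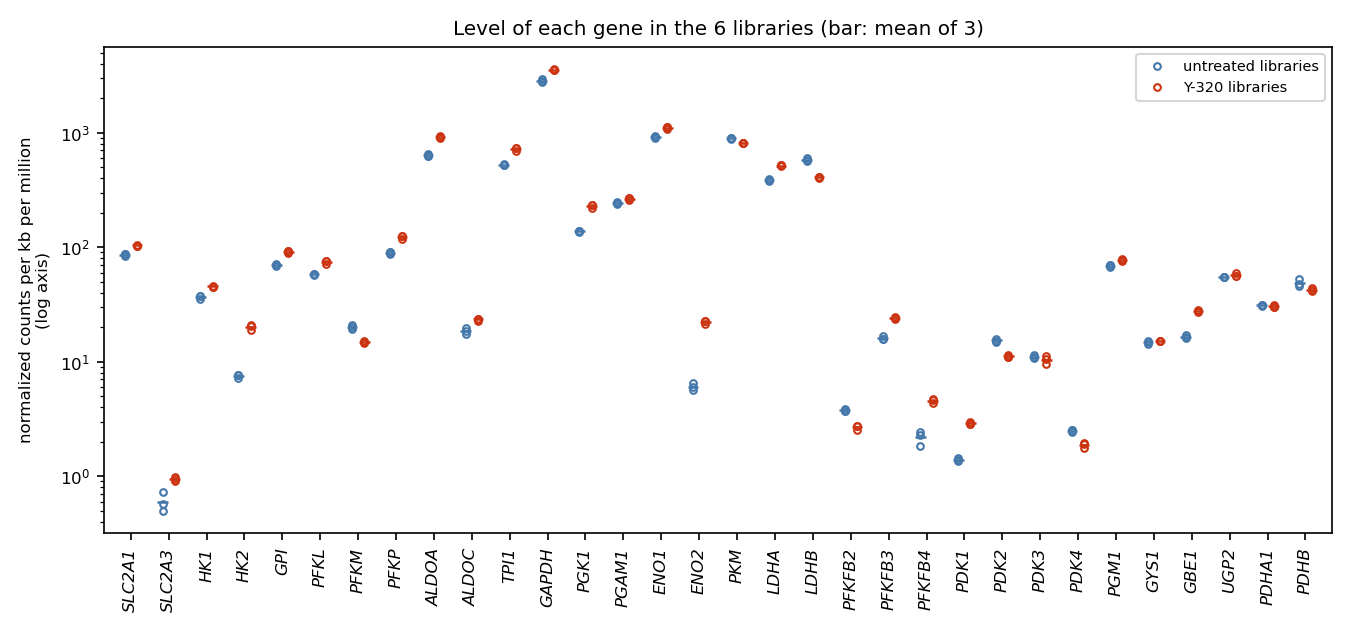
Level of each gene in every library, as normalised CPM per kilobase of canonical transcript on a log axis, with short bars at the mean of 3 libraries. GAPDH is highest in both groups and SLC2A3 lowest, and the separation of the groups is widest for ENO2 and HK2.

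Levels between genes are compared here per length, as normalised CPM per kilobase of the canonical transcript (per-kb level). SLC2A1 (GLUT1), the widespread basal glucose transporter, had a per-kb level of 86.3 ± 1.74 in untreated and 104 ± 0.839 in treated cells. Glucose uptake itself was not measured. The log2 fold change of SLC2A1 was 0.26 ± 0.024 (SE). SLC2A3 (GLUT3), the high-affinity transporter of neurons, was under 1% of the pair in every library. Its CPM were 1.90, 2.18 and 2.77 in untreated and 3.59, 3.51 and 3.78 in treated libraries. The treated values were all higher, but on 42.0 to 83.8 estimated counts, and the log2 fold change of 0.67 ± 0.17 (SE) ranged from 0.56 to 0.84 when single libraries were left out. Of the 31-base words in SLC2A3 transcripts, 28.8% also occur in other genes, so its counts may be shared with near-identical copies.

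Hexokinase, which traps glucose by phosphorylating it, is represented in the set by HK1 and HK2, and both were higher. HK2 (chr2:74834127-74893359, hg38, plus strand), the inducible isozyme that sits on mitochondria in many tumours, stood at 43.0, 40.9 and 43.2 CPM in untreated and 106, 119 and 116 CPM in treated libraries. Every treated library was above 2 times every untreated one, a log2 fold change of 1.42 ± 0.048 (SE, adjusted p = 5.49e-09, edgeR). HK1, the housekeeping isozyme, remained the more abundant of the pair, with a log2 fold change of 0.31 ± 0.029. On the per-kb scale HK2 made up 17.0% ± 0.769 of the pair in untreated and 30.7% ± 1.23 in treated cells (SD, n = 3 each), and the sum of these 2 genes was 44.4 ± 0.891 and 65.8 ± 1.40, or 1.48-fold higher. HKDC1, a further hexokinase gene outside the set and named after its value was seen, rose by 0.87 ± 0.085 from 7.17 to 13.1 mean CPM (adjusted p = 1.24e-05, edgeR).

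In the next steps GPI, PFKL and PFKP rose by less than HK2, and PFKM fell. GPI, which isomerises glucose 6-phosphate, had a log2 fold change of 0.39 ± 0.026 (SE). Phosphofructokinase-1 is the committed step and is built from 3 kinds of subunit. The liver type PFKL and the platelet type PFKP rose by 0.37 ± 0.029 and 0.46 ± 0.030, while the muscle type PFKM fell by 0.43 ± 0.040. PFKM read 64.4, 59.3 and 62.1 CPM in untreated and 44.9, 46.0 and 47.2 CPM in treated libraries, with no overlap (adjusted p = 8.78e-06, edgeR). PFKM was the smallest part of the trio in both groups, at 12.0% ± 0.626 of the summed per-kb level in untreated and 7.01% ± 0.0898 in treated cells, while PFKP went from 53.5% ± 0.677 to 57.9% ± 0.183. The summed per-kb level of the 3 genes was 1.27-fold higher with Y-320.

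Aldolase, triosephosphate isomerase and glyceraldehyde-3-phosphate dehydrogenase carry the split sugars onward. ALDOA rose by a log2 fold change of 0.52 ± 0.022 (SE), TPI1 by 0.46 ± 0.027 and GAPDH by 0.32 ± 0.025. ALDOC, the brain-type aldolase, rose by 0.33 ± 0.049 but was under 3% of aldolase on the per-kb scale. GAPDH, widely used as a loading reference, was the most abundant member at 2843 ± 108 per kb in untreated and 3553 ± 38.9 in treated cells, and its share of all counts was 0.353% to 0.377% and 0.453% to 0.464%. Because 53.8% of ALDOA words and 35.8% of GAPDH words occur in other genes, some of their reads could belong elsewhere, although the 65 rows named as GAPDH pseudogenes held only 0.222% as many counts as GAPDH.

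PGK1, the first ATP-making enzyme of the pathway, changed more than GPI, TPI1, GAPDH, PGAM1 and PKM, the other steps read through 1 gene. It read 665, 669 and 652 CPM in untreated and 1065, 1129 and 1120 CPM in treated libraries. The groups lay far apart relative to their spread, with a log2 fold change of 0.74 ± 0.026 (SE, adjusted p = 7.03e-09, edgeR). PGAM1, phosphoglycerate mutase, had the smallest change that passed, 0.12 ± 0.027 (adjusted p = 0.00345, edgeR), and 47.4% of its words occur in other genes.

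Of the 2 enolase genes in the set, almost the whole level was ENO1, the widespread isozyme, which rose by a log2 fold change of 0.28 ± 0.023. ENO2 (chr12:6913745-6923698, hg38, plus strand), the neuronal isozyme also known as neuron-specific enolase, had the widest change of all 32 genes. Its CPM were 14.9, 13.1 and 13.7 in untreated and 48.7, 52.1 and 51.8 in treated libraries. That is 3.67-fold in mean CPM and 1.87 ± 0.054 on the log2 scale (SE, adjusted p = 2.40e-09, edgeR). Even so ENO2 was 0.658% ± 0.0385 of the pair per kb in untreated and 1.96% ± 0.0253 in treated cells, so it moved the summed level of the pair very little. ENO3, a further enolase gene outside the set, was not counted in this sum. Named after its value was seen, ENO3 read 8.68 mean CPM in untreated and 12.7 in treated libraries.

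The last steps held genes of both directions. PKM, pyruvate kinase, fell by 0.14 ± 0.018 on the log2 scale (adjusted p = 8.96e-05, edgeR), from 2082, 2070 and 2021 CPM in untreated to 1876, 1862 and 1867 CPM in treated libraries. The groups did not overlap, but the decrease was to 0.908 of the untreated level. Gene-level counts do not separate the M1 and M2 splice forms of PKM, so a shift between them cannot be read from these values.

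Lactate dehydrogenase interconverts pyruvate and lactate with tetramers of an A subunit, known for muscle and for tumours, and a B subunit, known for heart. LDHA read 891, 874 and 853 CPM in untreated and 1139, 1171 and 1165 CPM in treated libraries. LDHB read 782, 749 and 741 CPM in untreated and 528, 535 and 539 CPM in treated libraries. The 2 genes moved in opposite directions without overlap, LDHA by 0.41 ± 0.022 and LDHB by -0.50 ± 0.025 on the log2 scale (adjusted p = 1.65e-07 and 7.65e-08, edgeR). On the per-kb scale LDHB exceeded LDHA in every untreated library and LDHA exceeded LDHB in every treated one. The share of LDHA was 40.1% ± 0.284 in untreated and 55.8% ± 0.189 in treated cells (SD, n = 3 each). With the longest coding transcript as the length the shares were 44.2% and 59.8%. The summed per-kb level of both genes was 970 ± 24.8 and 927 ± 11.3, with no overlap between 949 to 997 in untreated and 914 to 933 in treated libraries, or 0.955 of the untreated level. Other genes hold 31.4% of LDHB words and 11.4% of LDHA words.

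The 3 PFKFB enzymes make and break fructose 2,6-bisphosphate, the activator of phosphofructokinase-1. PFKFB3, the form with the strongest kinase activity, was the most abundant per kb and rose by 0.58 ± 0.032 on the log2 scale, from 70.2 to 74.6 CPM in untreated to 106 to 110 CPM in treated libraries. PFKFB4 rose from 8.60, 8.09 and 6.41 CPM to 16.6, 15.2 and 16.1 CPM. Its log2 fold change of 1.05 ± 0.10 (SE, adjusted p = 1.05e-05, edgeR) ranged from 0.93 to 1.14 when single libraries were left out. PFKFB2, known from heart, was at 26.1, 26.5 and 27.5 CPM in untreated and 18.0, 19.5 and 19.5 CPM in treated libraries. It fell by 0.49 ± 0.051 (adjusted p = 1.85e-05, edgeR), and its share of the 3 genes per kb was 17.1% ± 0.884 in untreated and 8.57% ± 0.291 in treated cells.

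The pyruvate dehydrogenase kinases, which phosphorylate and switch off pyruvate dehydrogenase, also split. PDK1 (chr2:172555373-172608669, hg38, plus strand) read 19.3, 20.2 and 19.6 CPM in untreated and 39.9, 40.1 and 41.9 CPM in treated libraries. It was the only 1 of the 4 kinases to rise, by 1.05 ± 0.043 on the log2 scale (SE, adjusted p = 2.40e-08, edgeR). PDK2, the widespread kinase, fell by 0.46 ± 0.039 and PDK4, the starvation-responsive kinase, fell by 0.42 ± 0.084 (adjusted p = 3.76e-06 and 0.00184, edgeR). PDK4 rested on 145 to 201 counts per library. PDK3 was at 19.1, 19.9 and 18.8 CPM in untreated and 16.5, 19.4 and 18.3 CPM in treated libraries. Its groups overlapped, and its log2 fold change of -0.09 had a 95% interval from -0.24 to 0.06 (adjusted p = 0.285, edgeR).

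How large a part PDK1 takes depends on the transcript length used. With the canonical transcripts PDK1 was 4.61% ± 0.0607 of the summed per-kb level of the 4 kinases in untreated and 11.0% ± 0.350 in treated cells, and with the longest coding transcripts 6.73% and 16.7%. PDK3 was 36.4% and 39.4% with its canonical transcript of 1741 bases but 7.28% and 8.19% with its longest one of 12720 bases, so the order of the kinases is not settled by these values. With canonical transcripts PDK2 was 50.7% ± 1.13 in untreated and 42.5% ± 2.21 in treated cells, and in treated replicate 2 PDK3 (41.5%) exceeded PDK2 (40.6%). Other genes hold 38.2% of PDK2 words. The summed per-kb level of the 4 kinases was 30.3 ± 0.502 in untreated and 26.3 ± 0.703 in treated cells.

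The subunits of pyruvate dehydrogenase itself had small log2 fold changes. PDHA1, the catalytic alpha subunit of pyruvate dehydrogenase, stood at 105, 104 and 104 CPM in untreated and 105, 100 and 101 CPM in treated libraries. Its log2 fold change was -0.03, with a 95% interval from -0.09 to 0.03 (adjusted p = 0.397, edgeR). PDHB, the beta subunit, fell by 0.19 ± 0.051 (adjusted p = 0.00902, edgeR), with 79.5, 68.7 and 72.4 CPM in untreated and 64.3, 62.3 and 66.3 CPM in treated libraries. The change of PDHB lay between -0.24 and -0.14 when single libraries were left out.

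Of the 4 glycogen genes, GBE1 stood out. GBE1, the branching enzyme that adds side chains to glycogen, read 49.9, 48.6 and 47.1 CPM in untreated and 79.7, 81.2 and 83.0 CPM in treated libraries. It rose by 0.74 ± 0.035 on the log2 scale (SE, adjusted p = 5.37e-08, edgeR). PGM1, which links glucose 1-phosphate and glucose 6-phosphate, rose by 0.17 ± 0.026 (adjusted p = 0.000372, edgeR). GYS1, the muscle-type glycogen synthase that lengthens the chains, had overlapping groups and a log2 fold change of 0.04 with an interval from -0.04 to 0.12 (adjusted p = 0.374, edgeR). UGP2, which makes the UDP-glucose that glycogen synthase uses, read 118 CPM in each untreated library and 122, 121 and 128 CPM in treated ones. The UGP2 groups did not overlap, but its log2 fold change of 0.07 with an interval from -0.00068 to 0.14 did not pass (adjusted p = 0.0913, edgeR). It passed with scaling by library size alone (0.08, adjusted p = 0.0467, edgeR).

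Isozymes of a step were then compared within each library, where the scaling between libraries cancels, as log2 ratios of counts per length. In all 12 pairs examined the ratio in treated libraries did not overlap that in untreated ones. Among single genes, 29.8% of all tested lay wholly higher with Y-320 and 29.4% wholly lower. The share over pairs of other genes was not computed, and several of the 12 pairs share a gene, so this count is described only. The exact two-sided permutation test gave p = 0.1 for each pair (0.1 after Benjamini-Hochberg adjustment over the 12), the smallest value that 3 against 3 libraries allow, so no pair could reach 0.05. The log2 ratio of ENO2 to ENO1 moved by 1.60 and that of HK2 to HK1 by 1.11. The log2 ratio of LDHB to LDHA was 0.58 ± 0.017 in untreated and -0.33 ± 0.011 in treated libraries (SD, n = 3 each), a difference of -0.91. PFKM against PFKL moved by -0.79 and PFKFB2 against PFKFB3 by -1.07. The ratios of PDK2, PDK3 and PDK4 to PDK1 moved by -1.51, -1.14 and -1.46. The least moved pairs were PFKP to PFKL, by 0.09, and ALDOC to ALDOA, by -0.19. SLC2A3 against SLC2A1 moved by 0.42, and PFKFB4 against PFKFB3 by 0.48.

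**Figure D3:**
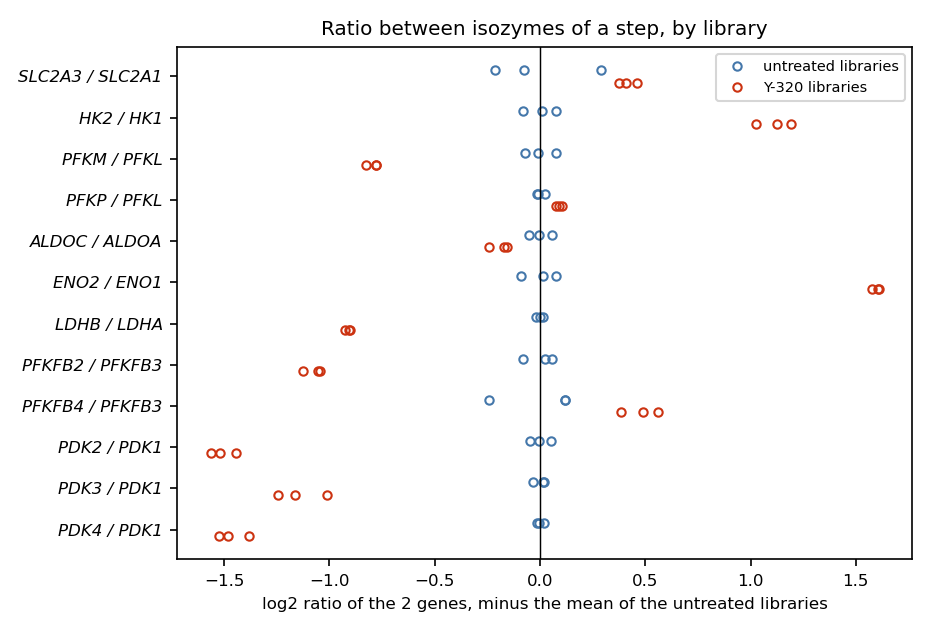
Log2 ratio between isozymes of the same step in each library, with the mean of the untreated libraries subtracted, for 12 pairs. Blue circles are the 3 untreated and red circles the 3 Y-320 libraries, and the red circles lie outside the range of the blue ones in every pair. How often pairs of other genes do so was not computed.

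**Figure D4:**
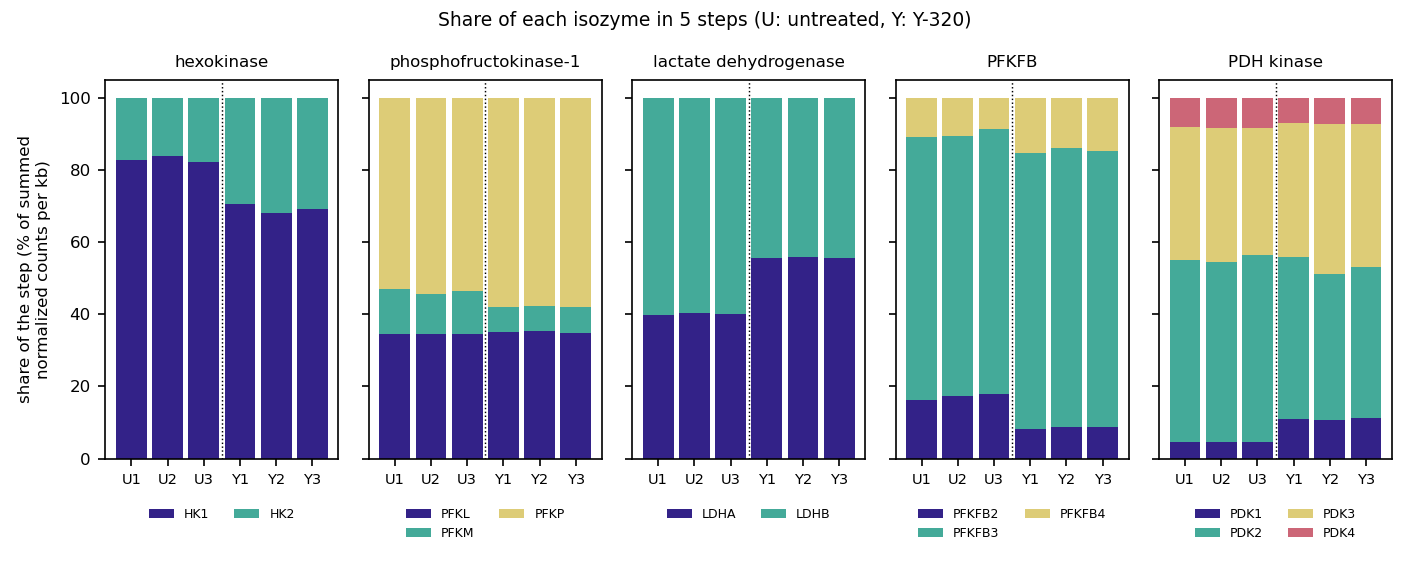
Share of each gene in the summed per-kb level of its step, in percent, for 5 steps in each of the 6 libraries (U untreated, Y Y-320). The LDHA part rises from 40.1% to 55.8% of LDHA and LDHB together, and the HK2 part from 17.0% to 30.7% of HK1 and HK2 together. The PDK panel uses canonical transcript lengths, on which the PDK3 part depends.

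Promoter sequences are shown for HK2, ENO2 and the lactate dehydrogenase genes, since HK2 and ENO2 rose most of the 32 and the LDH genes moved in opposite directions. Each is the 250 bases before the RefSeq start site (GRCh38.p14), written 5′ to 3′ on the strand of the gene. Capitals mark ACGTG or GCGTG on either strand (CACGT and CACGC on the other strand), the core letters known to be bound by hypoxia-inducible factors. The letters are a description and say nothing of whether a factor was bound.
HK2 (chr2:74833877-74834126, plus strand): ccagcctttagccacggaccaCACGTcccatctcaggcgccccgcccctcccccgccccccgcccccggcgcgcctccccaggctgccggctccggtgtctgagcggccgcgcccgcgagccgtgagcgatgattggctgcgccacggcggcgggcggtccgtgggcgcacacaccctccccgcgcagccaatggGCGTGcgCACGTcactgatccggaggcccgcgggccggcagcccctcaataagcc
ENO2 (chr12:6914330-6914579, plus strand): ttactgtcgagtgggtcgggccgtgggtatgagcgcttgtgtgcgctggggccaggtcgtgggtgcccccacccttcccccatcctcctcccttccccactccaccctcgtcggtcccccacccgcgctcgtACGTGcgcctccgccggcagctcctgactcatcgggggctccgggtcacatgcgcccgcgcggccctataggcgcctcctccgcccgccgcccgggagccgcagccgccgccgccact
LDHA (chr11:18394313-18394562, plus strand): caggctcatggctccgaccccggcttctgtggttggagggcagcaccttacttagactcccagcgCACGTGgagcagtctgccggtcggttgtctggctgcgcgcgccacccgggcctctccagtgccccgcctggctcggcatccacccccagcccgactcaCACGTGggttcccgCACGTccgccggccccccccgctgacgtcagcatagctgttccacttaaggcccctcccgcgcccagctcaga
LDHB (chr12:21657843-21658092, minus strand): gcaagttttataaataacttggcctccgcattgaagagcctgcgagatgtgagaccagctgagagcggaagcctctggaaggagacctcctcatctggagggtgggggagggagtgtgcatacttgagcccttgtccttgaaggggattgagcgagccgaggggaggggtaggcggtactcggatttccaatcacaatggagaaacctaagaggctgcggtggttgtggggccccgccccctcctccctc

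The LDHA window held 5 matches to ACGTG, at 185, 184, 87, 86 and 73 bases before the start site, where CACGTG counts once on each strand. The LDHB window held no match to either core before the start site. After the start site, GCGTG lay at 27 bases in LDHB and at 38 bases in LDHA. The HK2 window held ACGTG at 229 and 48 bases and GCGTG at 55 bases before the start site, and the ENO2 window held ACGTG at 118 bases. RefSeq windows of 300 bases, from 250 before to 50 after the start, were found for 30 of the 32 genes, all but SLC2A3 and PFKFB2. ACGTG occurred in 12 of the 30 (40%), against 21.6% of 27305 promoters of the same length. GCGTG occurred in 17 (56.7%), against 36.3%, and 1 or the other core in 21 (70%), against 48.4%. The E-box CANNTG, which overlaps ACGTG in CACGTG, occurred in 18 (60%), against 68.9%. Both cores hold the letters CG, and the promoters compared were not matched for base composition. Its part in these shares was not tested. Windows with either core made up 14 of the 20 matched genes that rose, 3 of the 6 that fell and all 4 that did not pass. The start site lay within 100 bases of the canonical transcript start for 19 of the 30 genes, of which 8 held ACGTG and 16 either core, and for the others, including HK1, PFKM and PFKFB3, the window may not be the promoter in use.

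Lists of other genes of the same pathways are read against the 26.2% of all tested genes called higher and the 25.4% called lower. Of 23 other glucose transporter and glycolysis genes, 13 were tested, 5 were higher and 5 lower, and the median log2 fold change was -0.08. LDHD, the mitochondrial D-lactate dehydrogenase, rose by 1.79 ± 0.28 (SE) from 0.621 to 2.16 mean CPM. That change rested on only 10 to 19 counts per untreated and 45 to 52 per treated library. The transporter genes SLC2A13 and SLC2A12 fell by 1.17 ± 0.13 and 1.14 ± 0.080. Of 22 other glycogen genes 21 were tested, 6 were higher and 5 lower, with a median of 0.01, which is near those shares. GYG2, a glycogenin that primes glycogen chains, fell by 1.40 ± 0.067. Of 17 other genes of pyruvate use 15 were tested, 4 were higher and 5 lower, with a median of -0.03, again near the shares over all genes. MPC1, a subunit of the mitochondrial pyruvate carrier, rose by 1.51 ± 0.042, from 16.5 to 47.0 mean CPM. Its partner MPC2, named after its value was seen, was at 30.7 and 30.1 mean CPM (log2 fold change -0.03, adjusted p = 0.596, edgeR). PCK2, the mitochondrial PEP carboxykinase, rose by 1.08 ± 0.057, and FBP1, a gluconeogenic enzyme, fell by 1.57 ± 0.17.

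**Figure D5:**
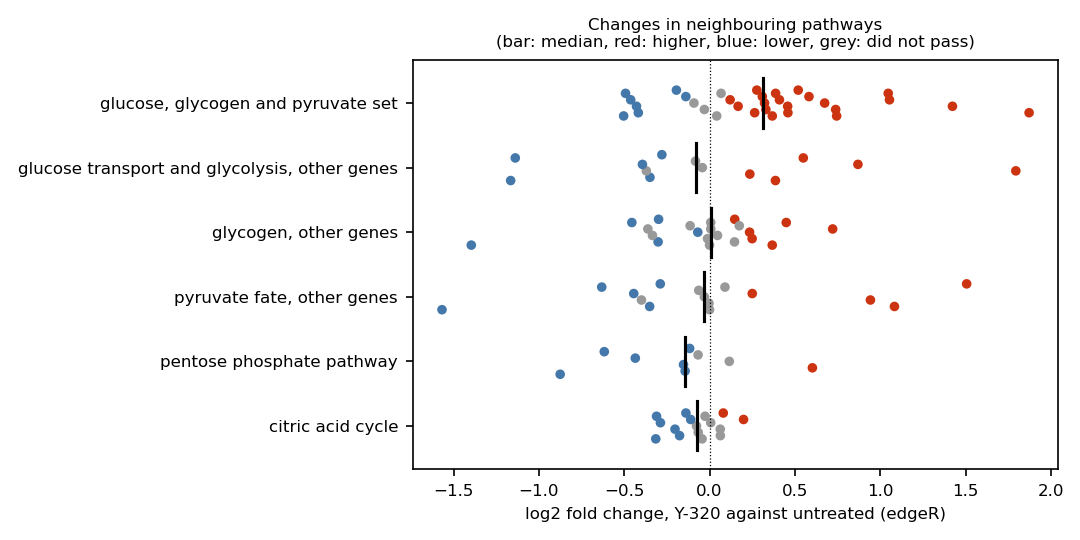
Log2 fold change of each tested gene (points, edgeR, 3 libraries per group) in the described set and in lists of other genes of the same and neighbouring pathways, with the median as a black bar. The median is 0.32 in the described set and between -0.14 and 0.01 in the other lists. The set and the lists were chosen with earlier results of these data known.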

How the data were processed

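RNA from 3 untreated and 3 Y-320-treated HDQ-P1 samples was sequenced on an Illumina NextSeq instrument. The authors deposited estimated counts per Ensembl gene for each library, not normalized, and 48.3% of the values are not whole because reads that fit several transcripts are divided. The submitters' processing notes name kallisto 0.46.1 and hg38, and the Ensembl release is not given in the sources used here. Counts were rounded, and 35390 of 40295 identifiers were matched to names in GENCODE 44.

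edgeR 4.0.16 in R 4.3.3 filtered genes (filterByExpr, 10 counts, 15 in total), scaled by TMM and fitted all genes with its quasi-likelihood test (two-sided, Benjamini-Hochberg adjustment, threshold 0.05). The fit was tried on simulated counts with a single dispersion (0.00104) for all genes and 200 changed genes. In the real data 8546 genes were called, so scaling and error rates under such broad change were not tested. Log2 ratios between isozymes used estimated counts plus a pseudocount of 0.5, divided by transcript length, and were compared by exact permutation. limma 3.58.1 (voom) and DESeq2 1.42.0 were other tests, and scipy 1.17.1 under Python 3.11.15 ran the permutations. A library's floor of 3 counts was 0.132 to 0.143 CPM, for counting error only.

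Values of some listed genes are not reported here, and counts over lists include them. The members and all lists were chosen with earlier results of these data known, so no count over them is independent support. All 32 members are named, and from each other list at most 3 called genes with the largest absolute log2 fold change of at least 1. Alternatives were other filters, tests, scalings, thresholds and pseudocounts, a replicate block, unrounded counts, added pseudogene rows, longest transcripts and leaving out each library.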

Additional observations from a re-analysis of the deposited data

How the results depend on the processing

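The counts of 21 higher and 7 lower members were the same with no filter, a filter of 10 counts in every library, DESeq2, limma-voom, upper-quartile scaling, DESeq2 size factors, unrounded counts, added pseudogene rows and an adjusted p under 0.01, and when any 1 library was left out (21 and 7 each time). Library-size scaling gave 22 higher, with UGP2 added. Requiring a log2 fold change of at least 0.5 left 9 higher and 1 lower. The share of all genes called at that limit was not computed. ALDOA, the smallest of the 9 increases, lay above 90.7% of all tested genes, and 8.87% lay below LDHB. With the replicate number as a replicate block the counts were 21 higher and 7 lower, and no member's call changed. The labels do not say whether same-numbered samples were paired, and these correlations cannot settle it: deviations of same-numbered libraries correlated at -0.0024, 0.015 and 0.0022. Of the members' recomputed log2 fold changes 511 kept their direction and their side of the threshold, and UGP2 with library-size scaling was the exception. All 120 recomputed isozyme ratios moved by less than 1 SD of the libraries. The median log2 fold change over all genes was 0.00 and lay between -0.028 and 0.014 under the other scalings. Leaving out 1 library moved no called member's value by over 1.5 times, but moved PDK3 to between -0.15 and -0.03, GYS1 to between 0.01 and 0.07, UGP2 to between 0.04 and 0.08 and PDHA1 to between -0.05 and -0.02. With the longest coding transcript as the length, 30 of the isozyme shares moved by more than 1 SD and 14 did not. The largest moves were among the PDK genes, and PFKP, for example, was then 48.8% in untreated and 53.0% in treated cells. The SD of a share covers the spread between libraries, not the choice of transcript length. The precision of SLC2A3, PFKFB4 and PDK4 is limited by their counts.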

Other observations

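The pentose phosphate pathway branches from glycolysis at glucose 6-phosphate and makes NADPH and ribose. Of 10 listed genes 9 were tested, 6 were lower and 1 higher with Y-320, with a median log2 fold change of -0.14. TKT, a transketolase that returns carbon to glycolysis, fell by 0.62 ± 0.036 (SE, adjusted p = 2.55e-07, edgeR). RBKS, ribokinase, was the gene that rose, by 0.60 ± 0.069. Both lie outside the rule for named genes and were chosen after their values were seen.

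Of 16 citric acid cycle genes, all tested, 7 were lower and 2 higher, with a median of -0.07 and no change of 1 or more on the log2 scale. CS, citrate synthase, fell by 0.29 ± 0.036 and FH, fumarase, by 0.32 ± 0.049, while IDH3G and DLST rose by 0.20 ± 0.047 and 0.08 ± 0.025. These 4 were also chosen after their values were seen. Against 25.4% of all tested genes called lower, the shares of both lists are described only, since the lists were chosen with earlier results known.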
